A study of Mus musculus with 18 samples.

Results

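The genes described here encode the subunits of oxidative phosphorylation that are made from nuclear DNA. They were taken by symbol: Nduf followed by a, b, c, s, v or ab and a number, Sdha to Sdhd, every symbol that begins with Uqcr, Cox4 to Cox8 or Atp5, and Cyc1. Of 23329 genes counted, 86 matched, with 37 in complex I, 4 in complex II, 9 in complex III, 19 in complex IV and 17 in complex V. Of these, 83 encode subunits, and 3 match by symbol although their proteins are no part of the enzymes (Cox4nb, also called Emc8, and Atp5s and Atp5sl, also called Dmac2l and Dmac2). Ndufa4 is kept with complex I by its name, although its protein is now placed in complex IV.

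Complex I (NADH dehydrogenase) and complex II (succinate dehydrogenase, also an enzyme of the citric acid cycle) pass electrons to ubiquinone. Complex III hands them to cytochrome c and complex IV to oxygen, and the protons that complexes I, III and IV move across the inner membrane drive ATP synthase, complex V. Complex II is built wholly from nuclear genes, while the other complexes also hold subunits made from mitochondrial DNA, which are not analysed here. In blood formation, dividing progenitors are known for active mitochondria, and mature neutrophils for few of them.

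RNA was sequenced from FDH cells, immortalised cells from the fetal liver (embryonic day 14.5) of BALB/c mice that lack both signalling chains of the IL-3 receptor, genotype βc-/- βIL-3-/-. All cells were transduced with βc and, in addition, with either wild-type IL3Ra, the IL-3-binding chain, or IL3Ra with the amino acid change P248L. At passages 10 to 12 each line was sampled in growth medium with doxycycline and SCF at 100 ng/ml, called untreated below, or after 2 or 5 days in IL-3 at 100 ng/ml. Since doxycycline and SCF are not listed for the IL-3 medium, a change over time covers the added IL-3 as well as their withdrawal. With 1 line for each receptor, receptor and line cannot be told apart. The 6 groups held 3 libraries each, and since the labels do not say whether these came from separate cultures, p-values measure only the spread between these samples.

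Libraries held 13844612 to 27181962 reads in genes. Values are CPM, the counts of a gene relative to the TMM-scaled library size, given as mean ± SD over 3 libraries where so marked, and a gene is said to rise or fall at an edgeR adjusted p under 0.05 over all 11942 genes tested. Of the 86 genes, 82 had enough reads to be tested. Ndufs5 was at 0 reads in every library, as were the tissue-restricted isoforms Cox7b2, Cox8b and Cox8c. Since 46.9% of the Ndufs5 transcript is near-identical to another locus, its count is uncertain, and the reason for its lack of reads was not tested. The restricted isoforms Cox4i2, Cox6a2 and Cox6b2 were tested on few reads, given with them below. Of the marker lists of other cell types, 5 hepatocyte genes summed to 0.153 to 14.3 CPM, 3 lymphoid genes to 0 to 0.287 CPM, 5 erythroid genes to 0.246 to 27.8 CPM and 5 stromal and endothelial genes to 71.7 to 173 CPM. The list of 7 progenitor genes summed to 7534 to 9695 CPM in the untreated libraries of both lines and to 130 to 546 CPM at day 5. At day 2 they stood at 2753 to 3300 CPM in wild-type and 5211 to 9361 CPM in P248L cells. Mpo alone made up most of this sum in the untreated and day 2 libraries, at 6312 ± 1238 and 6201 ± 2186 CPM in P248L cells (SD, n = 3). Of the 7 genes, 6 fell by day 2 in P248L cells (85.7%, against 21.5% of all genes) and 7 in wild-type cells (100%, against 21.8%). In P248L cells Kit went from 305 to 108 CPM and Flt3 from 127 to 4.00 CPM by day 2. The 5 neutrophil genes summed to 62.0 to 96.5 CPM untreated, 14337 to 17995 CPM at day 2 and 7733 to 13236 CPM at day 5 in wild-type cells. In P248L cells they summed to 1.47 to 4.79, 67.8 to 135 and 26027 to 38485 CPM at the same times. The 5 macrophage genes went from 168 to 178 CPM untreated to 1807 to 1995 CPM at day 5 in wild-type cells and from 160 to 212 CPM to 1119 to 1302 CPM in P248L cells. These markers moved with the time and line comparisons below, and their part in the results was not tested. In such bulk RNA, fewer cells of a type and less RNA per cell cannot be told apart.

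All 86 genes together took up 8725 to 9773 CPM in the 3 wild-type day 5 libraries and 11441 to 14382 CPM in the wild-type untreated ones, which did not overlap. In the P248L line the untreated sums were 24209, 15904 and 13432 CPM, and those of day 5 were 8961, 9544 and 10845 CPM. Untreated P248L library 1 stood far above all the others. Complex V was the largest share, at 4733 ± 521 CPM (SD, n = 3) in untreated wild-type cells and 2808 ± 144 CPM at day 5. Complex IV summed to 2409 ± 343 and 2251 ± 154 CPM in the same groups, a difference smaller than the spread of the untreated libraries. The smallest sum was that of complex II, 803 ± 37.7 CPM untreated and 881 ± 36.6 CPM at day 5. Per kilobase of the longest transcript, the median member of complex III stood at 134 CPM in untreated wild-type cells, above those of complex V (119 CPM), II (104 CPM), IV (94.3 CPM) and I (73.3 CPM). Complex V came first, at 266 CPM per kilobase, by the mean length of a gene's transcripts, and at 250.4 by the principal transcript, an alternative chosen after seeing the data. By longest or principal length Atp5b, the catalytic β subunit of ATP synthase, was the most abundant of the 86 at 725 CPM per kilobase, followed by Cox4i1, a structural subunit of cytochrome c oxidase, at 632 CPM per kilobase.

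**Figure D1:**
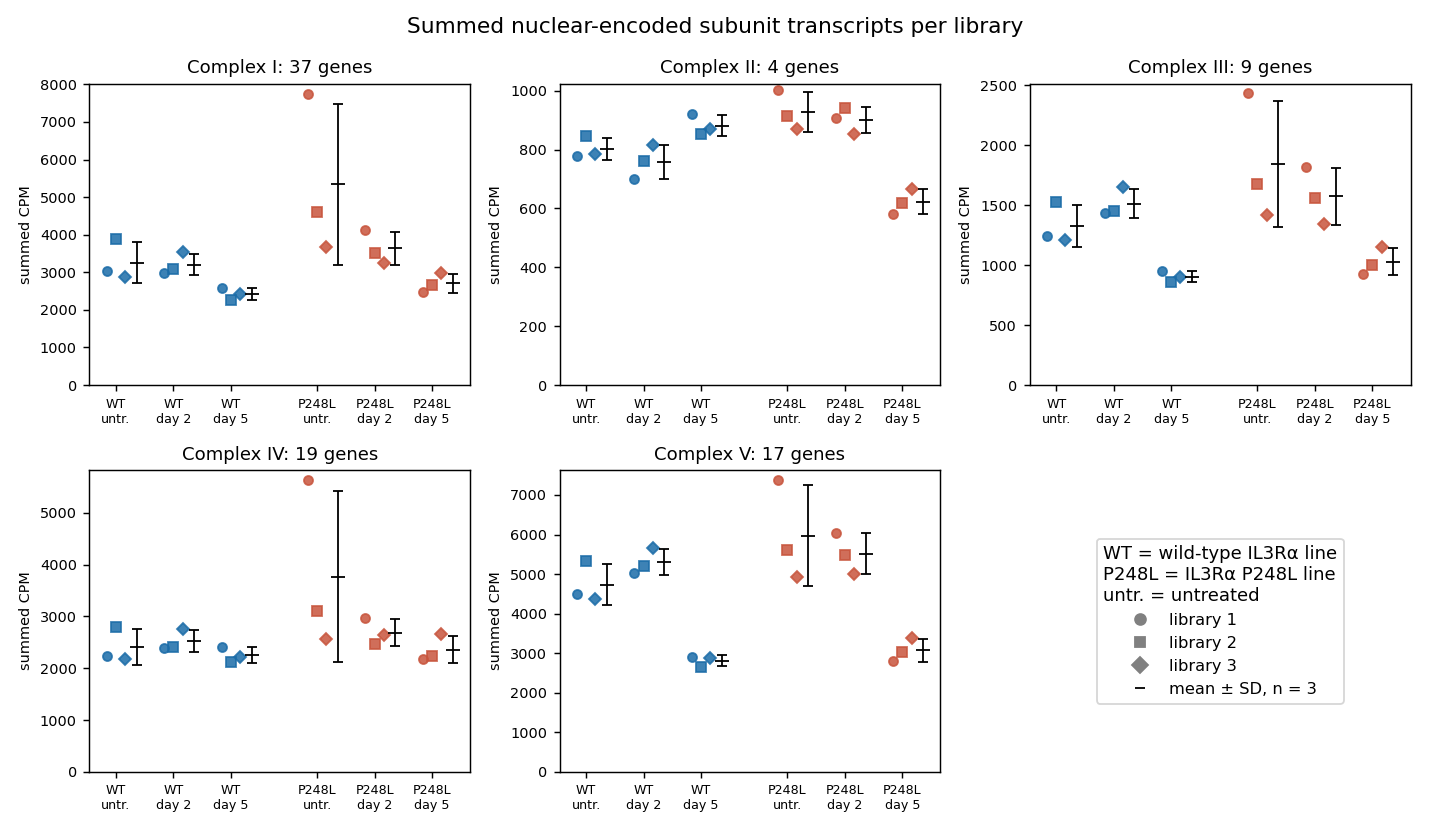
Summed CPM of the genes of each complex (y axes from 0) in every library of the 6 groups (x axes); symbols are libraries 1 to 3 and black bars the mean ± SD (n = 3). Untreated P248L library 1 is the highest point of every panel, and complex II is higher at day 5 in the wild-type line and lower in the P248L line.

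That 1 library touches many results. The genes were 0.82 higher on the log2 scale (median of 82) in untreated P248L library 1 than in libraries 2 and 3 of its group. Over all tested genes the same difference was 0.64 for transcripts under 1000 bases and -0.31 for those of 4000 bases or more. The genes described here are short, with a median transcript of 1135 bases against 3295 over all tested genes, and 76.8% of them lie under 2000 bases against 22.3% of all. Library 3 of the group deviated the other way, at -0.50 under 1000 bases and -0.59 for the 82 genes. What set this trend was not tested. The counts of P248L cells against untreated below are given with and without library 1.

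**Figure D2:**
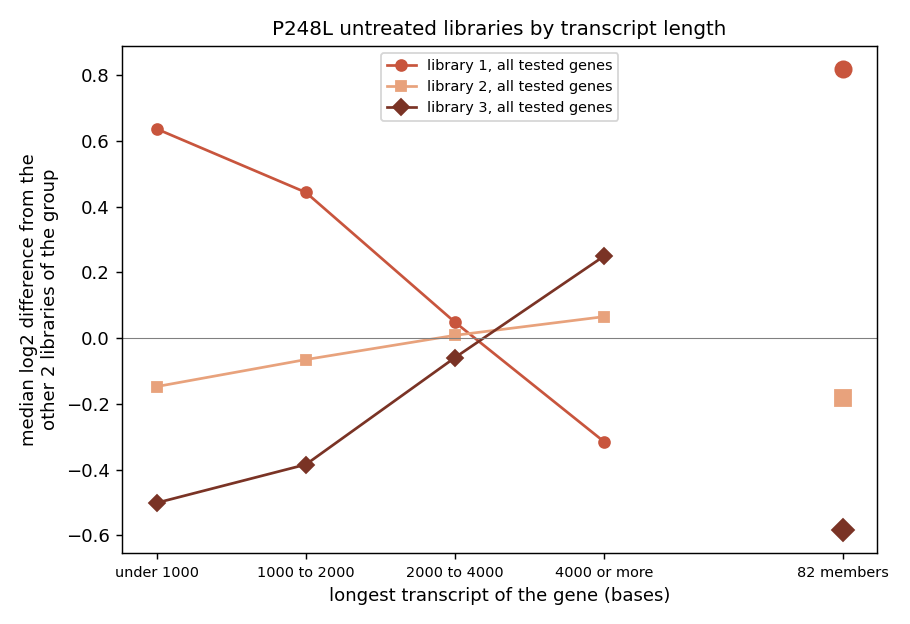
Median log2 difference of each untreated P248L library from the other 2 of its group (y axis), for all tested genes by longest transcript length (x axis, lines) and for the 82 tested genes described here (separate points at the right). Library 1 falls from 0.64 to -0.31 as transcripts lengthen and stands at 0.82 for the 82 genes.

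Between untreated cells and day 5, 32 of 82 genes (39%) fell in the wild-type line, a share close to that of all genes, of which 37.4% fell. In the other direction none rose by edgeR, against 35.7% of all genes, with 1 rising at an unadjusted p under 0.05 and 4 by DESeq2. Untreated P248L library 1 is in neither group and enters this comparison only through the shared gene filter, scaling, spread and adjustment. Without it 4 rose (Cox7a2l, Ndufa3, Sdhd and Ndufa1), or 4.88% against 37.8% of the 12070 genes tested in that fit. In the same fit 40 fell (48.8%, against 39.2% of all). With all libraries the median log2 fold change was -0.39, against -0.05 over all genes. With no scaling beyond library size, which lowers the median of all genes to -0.49, 61 genes fell.

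In the P248L line 66 of 82 genes (80.5%) fell by day 5 where 36.2% of all genes did, and 1 rose (Cox6a2) against 34.8% of all. The median was -0.87, against -0.02 over all genes. Without untreated library 1, 49 of 82 fell (59.8%) against 35.1% of all genes, and the median was -0.55. Leaving out any other single library gave 73 falls or fewer. Among short genes of every kind, those with transcripts under 1000 bases had a median of -0.65, and the 37 members of that length -0.91. Among genes of 4000 bases or more by longest transcript the median of all was 0.22 and that of the 5 members -1.24. These were Atp5g1, Atp5l, Cox4nb, Ndufb2 and Ndufb7, and the principal transcripts of Ndufb7 and Atp5l have 623 and 544 bases. All 5 were higher in untreated library 1 than in the others of its group, by 0.47 to 1.25 on the log2 scale. The median there for all genes of 4000 bases or more was -0.31, so these 5 do not separate the fall from the length trend.

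The calls overlapped. Of the 32 genes that fell in the wild-type line, 30 (93.75%) also fell in the P248L line, where 80.5% of the 82 fell. They made up 45.5% of the 66 that fell there, and 39% of the 82 fell in the wild-type line. The same overlap over all tested genes was not counted, so the sharing is not set against it. Cox6b2 fell in the wild-type line and had next to no reads in the other, and Cox6a2 fell in wild-type and rose in P248L cells. A further 36 genes fell in the P248L line and did not pass in the wild-type line, and 14 passed in neither. Without untreated P248L library 1, 36 genes fell in both lines (90% of 40 in the wild-type and 73.5% of 49 in the P248L line), 12 fell in the P248L line and did not pass in the wild-type line, and 25 passed in neither. In that fit 48.8% of the 82 genes fell in the wild-type and 59.8% in the P248L line. These comparisons are of separate groups of libraries, and the difference between the lines was tested on its own, as given further on.

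**Figure D3:**
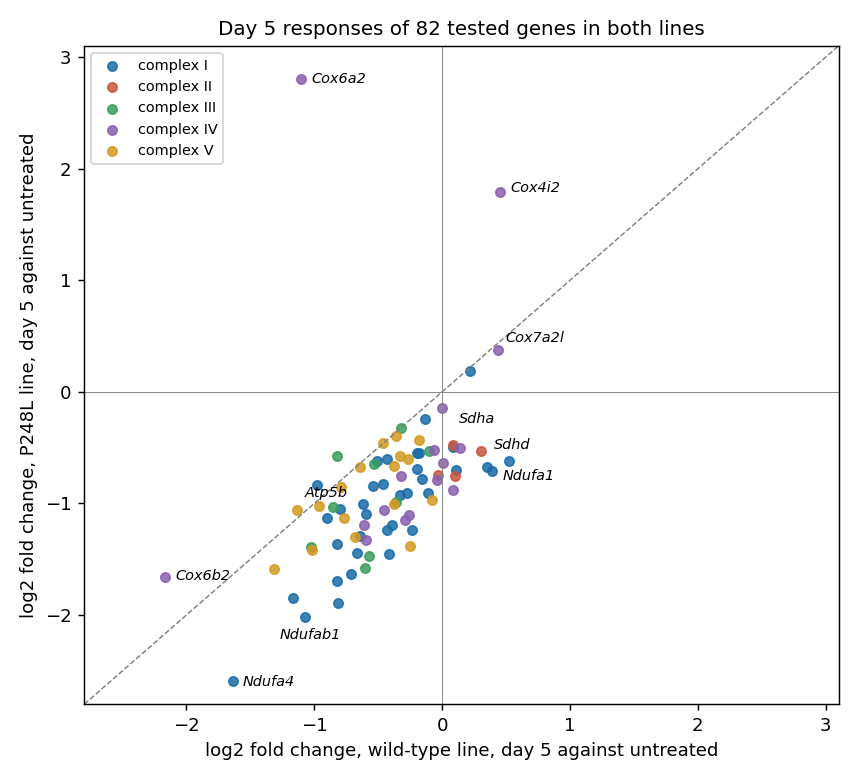
Log2 fold change at day 5 against untreated in the wild-type line (x axis) and the P248L line (y axis) for the 82 tested genes, coloured by complex; the dashed line marks equal change. Most points lie below the dashed line and below 0, and Cox6a2 lies far above it at -1.11 and 2.80.

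Of the 5 genes of the catalytic head of ATP synthase, 3 fell in each line (60%, against 37.4% and 36.2% of all genes). Of the 17 symbols of complex V, 8 fell in wild-type cells (47.1%, against 37.4% of all genes) and 13 in P248L cells (76.5%, against 36.2% of all). Without untreated P248L library 1, 11 fell in P248L cells (64.7%, against 35.1% of all). All 17 fold changes were below 0 in each line, and in P248L cells also without library 1. Over all 11942 genes 6163 were below 0 in wild-type and 6051 in P248L cells. Atp5b measured 1330, 1512 and 1325 CPM in the untreated wild-type libraries and 650.3, 609.8 and 633 CPM at day 5. In the P248L line it measured 1664, 1491 and 1392 CPM untreated and 673, 739 and 771 CPM at day 5. Every day 5 library of both lines was below every untreated one. The log2 fold changes were -1.14 ± 0.12 (SE, edgeR adjusted p = 1.46e-07) and -1.06 ± 0.12 (SE, edgeR adjusted p = 4.49e-07), and the difference between them, 0.08 ± 0.17 (SE, edgeR adjusted p = 0.778), did not pass. Atp5a1, the α subunit that alternates with β in the head, fell by nearly the same amount, at -0.97 (edgeR adjusted p = 1.74e-07) and -1.03 (edgeR adjusted p = 1.01e-07). The γ subunit of the rotating stalk, Atp5c1, fell by less, at -0.46 in both lines (edgeR adjusted p = 0.00221 and 0.00223). The small head subunits Atp5d and Atp5e passed in neither line.

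Of the 3 genes for the c ring, the rotor in the membrane whose mature protein is the same from each gene, Atp5g1 and Atp5g3 fell in both lines. Atp5g1 measured 33.3, 36.6 and 35.3 CPM in untreated and 14.1, 14.7 and 13.4 CPM in day 5 wild-type libraries. Its log2 fold change was -1.32 ± 0.37 (SE, edgeR adjusted p = 0.00386) there and -1.59 ± 0.37 (SE, edgeR adjusted p = 0.000867) in the P248L line. Atp5g3, the most abundant of the 3, went from 314 ± 69 to 184 ± 29.9 CPM (SD, n = 3), a log2 fold change of -0.77 (edgeR adjusted p = 0.0134). Atp5g2 measured 12.6, 10.6 and 12 CPM in untreated and 7.25, 8.42 and 6.87 CPM in day 5 wild-type libraries and did not pass in either line, and 88.2% of its transcript is near-identical to other loci, so its level is uncertain. In the stator and membrane part, Atp5o, the subunit that ties the head to the stator, fell in both lines (-1.02 and -1.41), as did Atp5h (-0.68 and -1.30), a stator subunit with 71.1% of its transcript shared with another locus. Of the 7 genes of this part, 2 fell in wild-type cells (28.6%, against 37.4% of all genes) and 6 in P248L cells (85.7%, against 36.2% of all). Without library 1, 5 fell in P248L cells (71.4%, against 35.1% of all). Atp5sl, no subunit but an assembly factor of complex I, fell by 0.79 and 0.85 on the log2 scale.

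Stretches upstream of 5 genes, chosen after their values were seen, are shown because they fell in both lines or, for Cox7a2l, did not, as the letters of RefSeq on GRCm38.p6 in 5′ to 3′ direction of the gene, cut where an annotated exon begins. Capitals mark matches to the motifs searched on both strands: NRF1 (GCGCA, any base, GCGC), ETS (CCGGAAGT), ERR (TCAAGGTCA), YY1 (AAGATGGCG) and the CCAAT box (GATTGG). Atp5b lies at chr10:128083057-128083272 (+ strand), Atp5g3 at chr2:73911327-73911576, Atp5h at chr11:115419963-115420127, Ndufa4 at chr6:11907498-11907700 and Cox7a2l at chr17:83514334-83514583 (all - strand).
Atp5b: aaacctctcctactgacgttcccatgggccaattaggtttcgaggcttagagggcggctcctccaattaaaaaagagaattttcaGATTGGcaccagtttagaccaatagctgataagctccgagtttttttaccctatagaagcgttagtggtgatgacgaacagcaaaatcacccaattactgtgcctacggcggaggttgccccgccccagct
Atp5g3: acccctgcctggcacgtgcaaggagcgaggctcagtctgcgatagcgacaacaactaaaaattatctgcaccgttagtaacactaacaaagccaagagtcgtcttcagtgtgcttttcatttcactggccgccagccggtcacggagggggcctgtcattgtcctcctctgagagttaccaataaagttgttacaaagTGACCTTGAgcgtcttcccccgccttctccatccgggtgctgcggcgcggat
Atp5h: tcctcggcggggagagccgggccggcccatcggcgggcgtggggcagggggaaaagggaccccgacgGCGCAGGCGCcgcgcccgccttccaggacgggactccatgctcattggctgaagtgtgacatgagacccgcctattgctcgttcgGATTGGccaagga
Ndufa4: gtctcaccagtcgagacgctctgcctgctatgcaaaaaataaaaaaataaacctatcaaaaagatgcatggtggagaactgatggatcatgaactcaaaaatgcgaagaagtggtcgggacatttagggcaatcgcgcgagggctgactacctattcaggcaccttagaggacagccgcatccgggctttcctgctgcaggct
Cox7a2l: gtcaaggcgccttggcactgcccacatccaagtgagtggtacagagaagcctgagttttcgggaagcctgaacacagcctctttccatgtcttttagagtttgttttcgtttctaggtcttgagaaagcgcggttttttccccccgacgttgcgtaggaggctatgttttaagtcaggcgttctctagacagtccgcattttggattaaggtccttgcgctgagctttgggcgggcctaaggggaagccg
Atp5b held a CCAAT box in the printed stretch and Atp5g3 an ERR motif on the other strand. Atp5h held an NRF1 motif and a CCAAT box. In the longer promoter, which runs past the start, Atp5g3 also held an NRF1 motif and Atp5h an ETS motif, not within the printed stretches. CCAAT without the sixth base of the searched letters was not counted as a CCAAT box. The stretches of Ndufa4, which fell, and of Cox7a2l, which did not, held none of the letters searched. Of the 86 genes, 70 had a promoter in the table (250 bases before to 50 after the start), and 17 of these (24.3%) held the NRF1 motif against 5.19% of 27025 promoters of all genes. The YY1 motif was in 8 (11.4% against 1.64%), the ERR motif in 2 (2.86% against 0.466%), the ETS motif in 5 (7.14% against 4.31%) and the CCAAT box in 14 (20% against 18.2%). These counts describe letters in the sequence, and no binding was measured.

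Of the 36 tested genes of complex I, 17 fell in wild-type cells (47.2%, against 37.4% of all genes) and 32 in P248L cells (88.9%, against 36.2% of all). Without untreated P248L library 1, 23 fell in P248L cells (63.9%, against 35.1% of all). With all libraries none rose in either line by edgeR (0 at an unadjusted p under 0.05 in each line, though Ndufa3 rose in wild-type cells by DESeq2). The 7 core genes, whose proteins carry the flavin and the iron-sulphur clusters, had 4 and 7 falls (57.1% and 100%, against 37.4% and 36.2% of all genes). In P248L cells there were 7 also without library 1 (35.1% of all). Ndufs1, the largest core subunit, measured 177, 179 and 184 CPM untreated, 223, 224 and 232 CPM at day 2 and 136, 134 and 131 CPM at day 5 in the wild-type line. The P248L line had 202, 214 and 219 CPM untreated, then 249, 269 and 326 CPM at day 2, then 141, 139 and 136 CPM at day 5. In both lines all day 2 libraries were the highest and all day 5 libraries the lowest, without overlap. Ndufs1 rose at day 2 (0.33 ± 0.10 SE, edgeR adjusted p = 0.0143 in wild-type and 0.41 ± 0.10 SE, edgeR adjusted p = 0.00386 in P248L cells) and fell below the untreated level by day 5 (-0.43 and -0.61).

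The largest fall shared by both lines was that of Ndufa4. Its libraries measured 239, 333 and 207 CPM untreated, 167, 208 and 218 CPM at day 2 and 91, 74.9 and 84.1 CPM at day 5 in wild-type cells. P248L cells had 625, 385 and 316 CPM untreated, 209.9, 202 and 141 CPM at day 2 and 57.9, 80.9 and 81.9 CPM at day 5. Day 5 libraries lay below all others in each line. The log2 fold change at day 5 was -1.64 ± 0.24 (SE, edgeR adjusted p = 7.43e-06) in wild-type and -2.59 ± 0.25 (SE, edgeR adjusted p = 4.53e-08) in P248L cells, and -2.26 (adjusted p = 2.65e-08) there without untreated library 1. Ndufab1, the mitochondrial acyl carrier protein, fell by day 5 in both lines (-1.07 and -2.02). It was low throughout, at 2.5 to 15.7 CPM. Ndufa5, an accessory subunit of the matrix arm, had 247, 86.7 and 60.1 CPM in the untreated P248L libraries and 34, 32.5 and 39.9 CPM at day 5, a log2 fold change of -1.89 ± 0.35 (SE, edgeR adjusted p = 0.000103) with library 1 far above the other untreated libraries. Without library 1 the value was -1.05 (adjusted p = 4.64e-05). Among the other accessory genes Ndufb2 (-1.17 and -1.84), Ndufa12 (-0.82 and -1.69), Ndufb11 (-0.98 and -0.83) and Ndufb5 (-0.90 and -1.13) fell in both lines, Ndufb11 not passing in P248L cells without library 1 (adjusted p = 0.0931). Ndufa6, Ndufa8 and Ndufv3 passed in neither.

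In the P248L line all 4 genes of complex II fell by day 5 (100%, against 36.2% of all genes and 80.5% of the 82). Their day 5 responses differed between the lines. None of the 4 passed at day 5 in the wild-type line by edgeR, where 37.4% of all genes fell and 35.7% rose. In that line 1 of them rose at an unadjusted p under 0.05, and Sdha and Sdhd rose by DESeq2. The median of the 4 was 0.09 in the wild-type and -0.64 in the P248L line. The 4 falls in P248L cells also passed without untreated library 1 (100%, against 35.1% of all genes and 59.8% of the 82). Sdha, the flavoprotein that oxidises succinate (chromosome 13, 74322255 to 74350240), measured 352, 370.2 and 383 CPM untreated and 404, 394 and 374 CPM at day 5 in wild-type cells, against 316, 367 and 386 CPM untreated and 259, 251 and 259 CPM at day 5 in P248L cells. The 3 P248L day 5 libraries were the lowest of all 18. Sdhd, a membrane anchor (chromosome 9, 50596340 to 50603849), had 217, 239 and 205 CPM untreated and 290.0, 257 and 269 CPM at day 5 in the wild-type line, and 306, 253 and 239.9 CPM untreated and 157, 185 and 210.0 CPM at day 5 in the P248L line. Its wild-type libraries were higher at day 5 without overlap, and its P248L libraries were lower without overlap. Sdhb, the iron-sulphur subunit (chromosome 4, 140961271 to 140979198), had 95, 112 and 90.1 CPM untreated and 110.2, 99 and 109 CPM at day 5 in wild-type cells, and 165, 131 and 106 CPM untreated and 70, 76 and 92.8 CPM at day 5 in P248L cells. For Sdhc, the other anchor (chromosome 1, 171129157 to 171150640), the values were 114, 125 and 107 CPM untreated and 118, 101 and 118 CPM at day 5 in wild-type and 216, 162 and 136 CPM untreated and 94.4, 107 and 105 CPM at day 5 in P248L cells. Both overlapped in the wild-type line and did not in the P248L line. All positions are on GRCm38.p6.

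The difference between the day 5 responses of the lines was tested directly for each gene, as the P248L minus the wild-type log2 fold change. It was -0.56 ± 0.14 (SE, edgeR adjusted p = 0.00578) for Sdha, -0.85 ± 0.24 (SE, edgeR adjusted p = 0.013) for Sdhb, -0.71 ± 0.26 (SE, edgeR adjusted p = 0.04999) for Sdhc and -0.84 ± 0.20 (SE, edgeR adjusted p = 0.00382) for Sdhd. All 4 passed, where 12.2% of all genes passed in this direction and 9 of the 82 genes (11%) did, a share that is itself no higher than that of all genes. Without untreated P248L library 1 the values were -0.64 (adjusted p = 0.000901) for Sdha, -0.68 (adjusted p = 0.0284) for Sdhb, -0.51 (adjusted p = 0.126) for Sdhc and -0.73 (adjusted p = 0.00717) for Sdhd, so Sdhc no longer passed. With no scaling beyond library size only Sdhd passed, at -0.62 (adjusted p = 0.0175). With a trend on transcript length and GC removed from each library all 4 passed. At day 5 itself, where no untreated library enters, Sdha and Sdhd were lower in the P248L than in the wild-type line (-0.61 ± 0.10 SE, edgeR adjusted p = 5.98e-05 and -0.56 ± 0.14 SE, edgeR adjusted p = 0.00274), also with no scaling, and Sdhb (-0.41, edgeR adjusted p = 0.0534) and Sdhc (-0.14, edgeR adjusted p = 0.581) did not pass. The other 5 genes past the threshold in this direction were Ndufa1, Ndufa3, Ndufa4, Cox6b1 and Cox4nb. Of these, Ndufa1, Cox6b1 and Cox4nb kept the call without library 1. The neutrophil markers differed between the lines as well, all 5 passing in the difference of day 5 responses with a median of 5.63, and their part in the complex II difference was not tested.

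**Figure D4:**
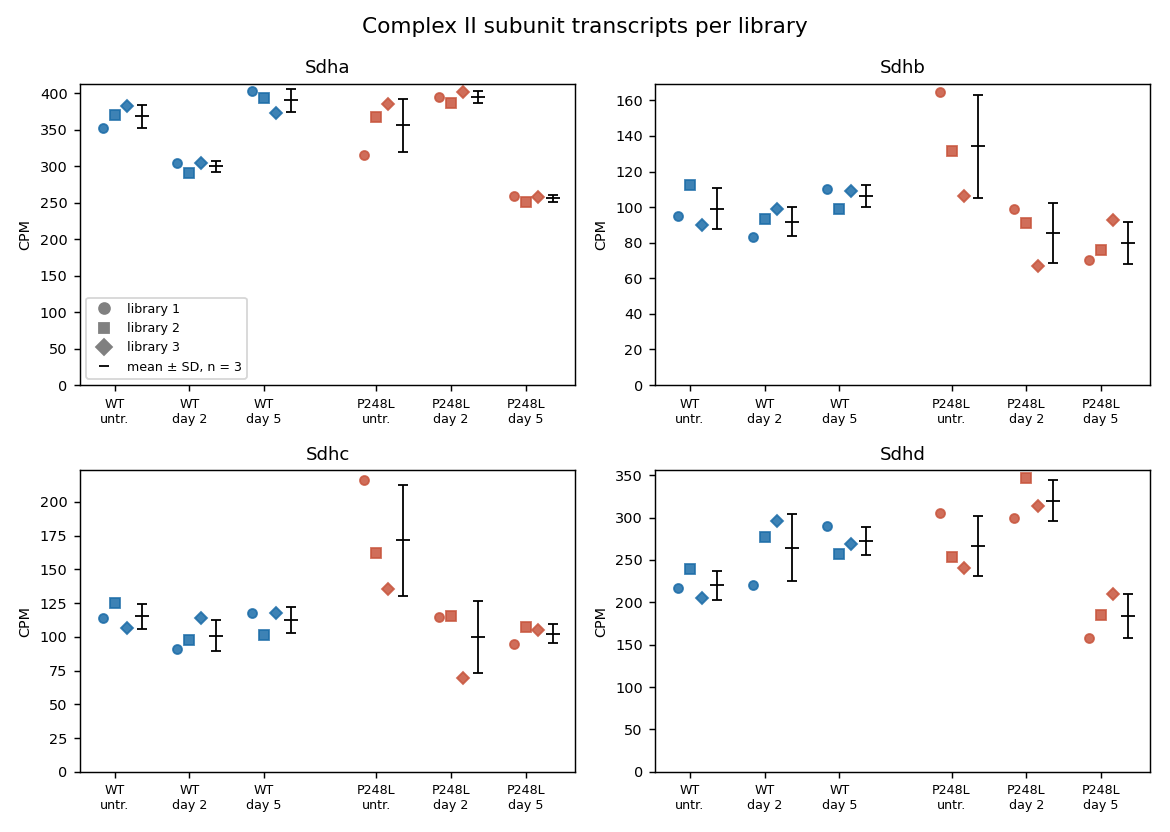
CPM of Sdha, Sdhb, Sdhc and Sdhd (y axes from 0) in every library (symbols) of the 6 groups (x axes), with the mean ± SD (n = 3) as black bars. Wild-type day 5 libraries of Sdha lie at 374 to 404 CPM and P248L day 5 libraries at 251 to 259 CPM.

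Of the 9 genes of complex III, 3 fell in wild-type cells (33.3%, against 37.4% of all genes) and 7 in P248L cells (77.8%, against 36.2% of all). Without untreated P248L library 1, 6 fell in P248L cells (66.7%, against 35.1% of all). All 9 fold changes were below 0 in each line, and in P248L cells also without library 1. Of all 11942 genes, 6163 were below 0 in wild-type and 6051 in P248L cells. Uqcrc2, a core protein of the matrix side (chromosome 7, 120635189 to 120659523), measured 251, 257 and 256 CPM untreated, 296, 289 and 304 CPM at day 2 and 145, 142 and 144 CPM at day 5 in wild-type cells. In the P248L line it measured 237, 262 and 265 CPM untreated, 316, 323 and 322 CPM at day 2 and 157, 173 and 184 CPM at day 5. Day 5 libraries were the lowest in each line, and day 2 libraries the highest. The day 5 log2 fold change was -0.83 ± 0.09 (SE, edgeR adjusted p = 3.01e-07) in wild-type and -0.57 ± 0.09 (SE, edgeR adjusted p = 2.68e-05) in P248L cells. Uqcrc1, its partner core protein, fell in both lines (-1.02 and -1.39), and so did Cyc1, cytochrome c1 (-0.85 and -1.03). Cyc1 measured 94.3, 117 and 93.4 CPM untreated, 151, 138 and 175 CPM at day 2 and 57.3, 51.9 and 59.7 CPM at day 5 in wild-type cells, and 158, 129 and 113 CPM untreated, 201, 157 and 87.6 CPM at day 2 and 60.3, 63.7 and 71.2 CPM at day 5 in P248L cells. The 3 times did not overlap in the wild-type line, where Cyc1 first rose at day 2 (0.61 ± 0.21 SE, edgeR adjusted p = 0.028). The Rieske iron-sulphur protein Uqcrfs1 did not pass in either line, at -0.32 in both. The small subunits Uqcr10, Uqcr11, Uqcrb and Uqcrh fell in the P248L line and did not pass in the wild-type line, and Uqcrh did not pass in P248L cells without library 1 (adjusted p = 0.197). Of the Uqcrb transcript 62.8% is near-identical to another locus.

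Of the 16 tested genes of complex IV, 4 fell in the wild-type line (25%, below the 37.4% of all genes) and 10 in the P248L line (62.5%, against 36.2% of all). Without untreated P248L library 1 the P248L falls numbered 5 of 16 (31.2%, below the 35.1% of all genes in that fit). Of the 10 ubiquitous subunits, Cox7b and Cox7c fell in both lines (Cox7b -0.46 and -1.06, Cox7c -0.59 and -1.33), though 58.3% of the Cox7c transcript is shared with other loci. Cox4i1 measured 442, 601 and 407 CPM untreated and 506, 464 and 484 CPM at day 5 in wild-type cells, and 1096, 633 and 459 CPM untreated and 425, 456 and 524 CPM at day 5 in P248L cells. Its wild-type groups overlapped, with a log2 fold change of 0.00. In P248L cells it had a log2 fold change of -0.64 ± 0.23 (SE, edgeR adjusted p = 0.0216), with library 1 the highest and untreated library 3 within the range of day 5. It did not pass without library 1, at -0.22 (adjusted p = 0.279). Cox6b1, which helps join the monomers of the enzyme, had a log2 fold change of 0.09 in wild-type and -0.88 in P248L cells, and the difference passed (-0.97 ± 0.30 SE, edgeR adjusted p = 0.0229).

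Cox5a, which binds on the matrix side, measured 141, 194 and 126 CPM untreated and 162, 129 and 157 CPM at day 5 in wild-type cells, and Cox5b, a separate subunit, 94.1, 122 and 93.8 CPM untreated and 75.7, 61.3 and 65.7 CPM at day 5. In P248L cells Cox5a had 395, 243 and 182 CPM untreated and 128, 161 and 187 CPM at day 5 and Cox5b 271, 150.4 and 114 CPM untreated and 77.9, 72.3 and 84.2 CPM at day 5. Both fell in the P248L line and did not pass in the wild-type line, and without library 1 Cox5a no longer passed, at -0.43 (adjusted p = 0.0559). Cox6a1, the ubiquitous partner of Cox6a2, measured 127, 179 and 124 CPM untreated and 131, 113 and 116 CPM at day 5 in wild-type cells, with overlap between the times, and 464, 188 and 133 CPM untreated and 117, 116 and 134 CPM at day 5 in P248L cells. Cox7a2, the ubiquitous form of Cox7a1, had 216, 271 and 197 CPM untreated and 226, 193 and 234 CPM at day 5 in wild-type and 435, 279 and 250.3 CPM untreated and 176, 231 and 265 CPM at day 5 in P248L cells, and it fell in the latter (-0.52). Neither Cox6a1 nor Cox7a2 passed in P248L cells without library 1, at -0.40 (adjusted p = 0.195) and -0.24 (adjusted p = 0.22). Cox8a, the ubiquitous form of the unread Cox8b and Cox8c, passed in neither line, at 0.14 and -0.51.

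Cox7a2l, a relative of the Cox7a subunits that helps join complexes III and IV into supercomplexes, was lowest at day 2. Its wild-type libraries measured 123, 174 and 122 CPM untreated, 83.9, 86.2 and 86.6 CPM at day 2 and 195, 188 and 182 CPM at day 5. In the P248L line they were 396, 225 and 172 CPM untreated, 140.2, 119 and 155 CPM at day 2 and 347, 293 and 386 CPM at day 5. In both lines the day 2 libraries were below all the others. It fell at day 2 (-0.71 ± 0.22 SE, edgeR adjusted p = 0.0163 and -0.94 ± 0.22 SE, edgeR adjusted p = 0.00311) and rose from day 2 to day 5 (1.14 ± 0.23 SE, edgeR adjusted p = 0.000217 and 1.31 ± 0.23 SE, edgeR adjusted p = 5.34e-05). Day 5 did not differ from untreated beyond the threshold (0.43 and 0.37), and without untreated P248L library 1 it was higher in both lines, at 0.43 (adjusted p = 0.0129) and 0.78 (adjusted p = 0.00043). Cox7a2l was also higher in the P248L line at each time, by 0.92, 0.69 and 0.86 on the log2 scale untreated, at day 2 and at day 5.

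Of the 7 tissue-restricted isoforms, 4 had enough reads to be tested. Cox6b2, an isoform known from testis, measured 4.87, 6.04 and 4.83 CPM in untreated, 1.53, 1.15 and 1.2 CPM in day 2 and 1.95, 0.853 and 0.68 CPM in day 5 wild-type libraries. The P248L line had 1 read of it in the 3 untreated libraries together, against 363 in the wild-type ones, a ratio of 386 with an exact 95% interval of 68.8 to 15272 for counting error only. At day 2 and day 5 it was at 0 in all P248L libraries, which with a floor of 3 counts over the group makes it at least 23.6-fold and 19.7-fold lower than in the wild-type line. Within the wild-type line it fell by 2.17 on the log2 scale by day 5 (edgeR adjusted p = 3.87e-05). Cox6a2, the heart and muscle isoform, had 0.497, 0.696 and 0.665 CPM untreated, 2.88, 1.61 and 2.3 CPM at day 2 and 0.305, 0.341 and 0.204 CPM at day 5 in wild-type cells, and 0.188, 0.164 and 0.256 CPM untreated, 0.207, 0.246 and 0.147 CPM at day 2 and 1.11, 1.61 and 1.51 CPM at day 5 in P248L cells. The peak stood at day 2 in the wild-type line and at day 5 in the P248L line, without overlap with the other times in either. It rests on 2 to 66 reads a library. The difference of the day 5 responses was 3.91 ± 0.50 (SE, edgeR adjusted p = 1.68e-05). Cox4i2, the isoform of Cox4i1 known from hypoxic lung, was also highest at day 2 in wild-type cells (1, 0.631 and 1.04 CPM), with 1 or 2 reads in each untreated library. Cox7a1, the muscle isoform of Cox7a2, was higher in P248L than wild-type cells at day 5 (1.08 ± 0.32 SE, edgeR adjusted p = 0.0109).

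**Figure D5:**
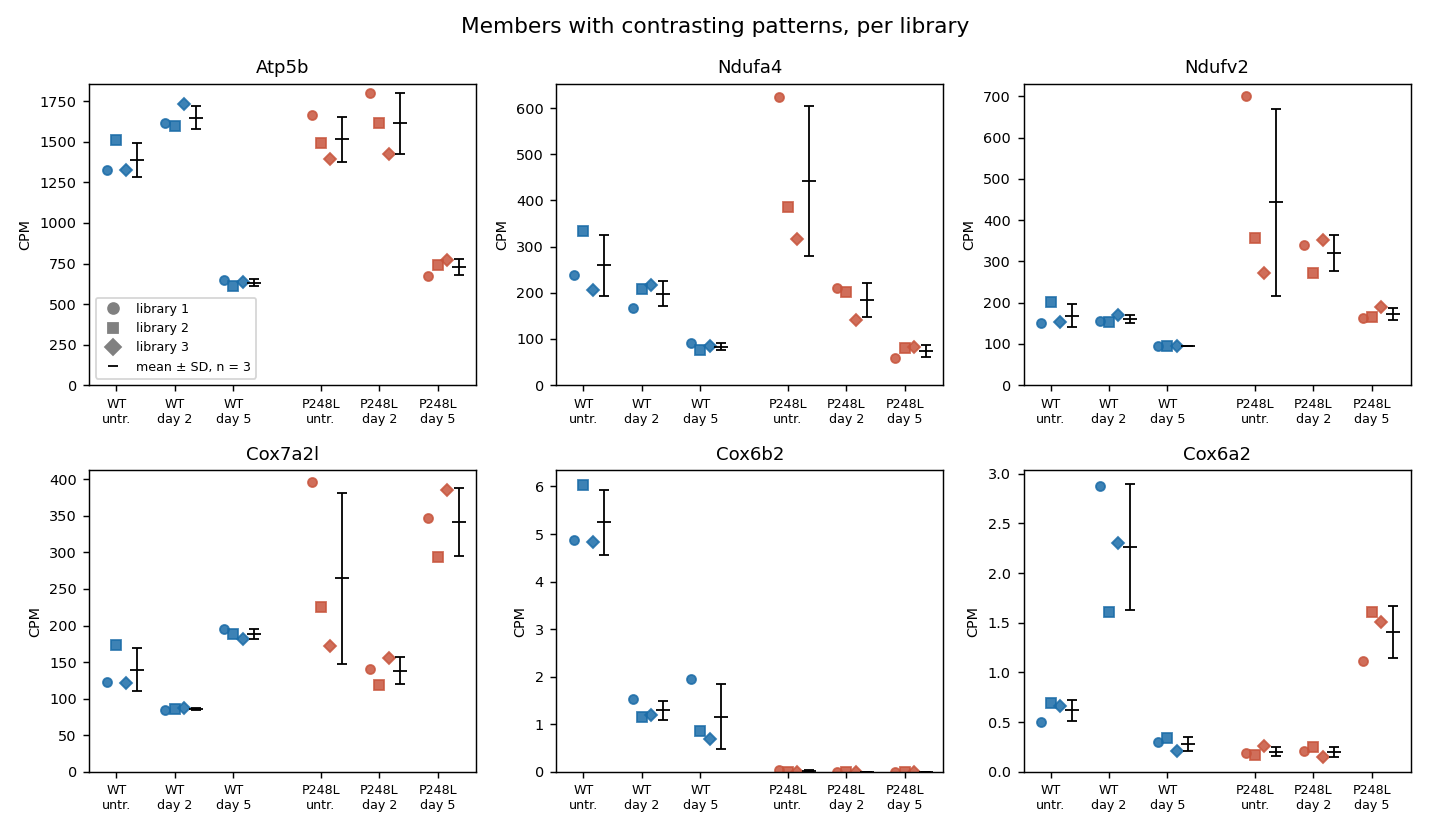
CPM (y axes from 0) of Atp5b, Ndufa4, Ndufv2, Cox7a2l, Cox6b2 and Cox6a2 in every library (symbols) of the 6 groups (x axes), with the mean ± SD (n = 3) as black bars. Atp5b and Ndufa4 are lowest at day 5 in both lines, Cox7a2l is lowest at day 2, and Cox6a2 peaks at day 2 in the wild-type and at day 5 in the P248L line.

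The day 2 and day 5 comparisons of a line share its untreated libraries. At day 2 in the wild-type line, where the neutrophil markers were already at 14337 to 17995 CPM, 5 of 82 genes rose (22.1% of all genes rose) and 4 fell (21.8% of all fell), with a median log2 fold change of 0.02. The rises were of Ndufs1, Cyc1, Atp5f1 (a stator subunit, 0.46), Cox6a2 and Cox4i2, and the falls of Sdha (-0.30), Cox7a2l, Cox6b2 and Atp5sl. Between day 2 and day 5, 35 genes fell (42.7%, against 34.7% of all genes) and 3 rose (36% of all), namely Sdha, Cox7a2l and Ndufa1, a small membrane subunit of complex I. In the P248L line 28 genes (34.1%) fell by day 2 where 21.5% of all did, and 2 rose (Ndufs1 and Uqcrc2) where 18.5% of all did. The count of falls moved with single libraries in the unpaired fit. It was 8 without untreated library 1 (18.8% of all genes fell in that fit), 48 without untreated library 3, 15 and 13 without day 2 libraries 2 and 3, and 3 without untreated library 1 and day 2 library 3 together. Except for the first of these fits the share of all genes is not given, and the counts are not set against it. Same-numbered libraries of these groups deviated together. The summed CPM was 24209, 15904 and 13432 untreated and 15851, 13984 and 13098 at day 2, lower for each of the 3 numbers but overlapping between the groups. In both groups library 1 was high and library 3 low for transcripts under 1000 bases. The median log2 differences from the rest of the group were 0.64 and -0.50 untreated and 0.25 and -0.25 at day 2. The part of this length trend in the blocked count below was not tested. In those 6 libraries alone, 28 of 79 tested genes fell with the replicate number as a block (35.4%, against 18.2% of all genes) and 1 without it (1.27%, against 9.6% of all), a pair of fits added after seeing the data. From day 2 to day 5, 39 genes fell (47.6%, against 33.1% of all) and 5 rose (37.1% of all), among them Cox7a2l, Cox7a1 and Ndufv3. The day 2 responses of the lines differed for no gene upward (3.05% of all genes; edgeR, 1 at an unadjusted p under 0.05, 1 by DESeq2) and for Cox6a2 downward (6.5% of all; -1.79 ± 0.55 SE, edgeR adjusted p = 0.0474). That call was lost in 24 of 26 alternatives, and the value stayed between -1.96 and -1.56 when single libraries were left out.

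Untreated P248L cells had higher levels than untreated wild-type cells for 27 of 82 genes (32.9%) where 10.3% of all genes were higher, and lower levels for 2 (Cox6b2 and Cox6a2) where 11.3% were. This count also turned on single libraries. It was 5 without P248L library 1 (6.10% of the genes, against 6.26% of all genes in that fit), 62 without P248L library 3, and 5 and 6 without wild-type libraries 1 and 3. The share of all genes moved as well when a library was left out. For the fits without P248L library 3 or a wild-type library it is not given, so those counts are not set against it. The 5 genes that stayed higher without P248L library 1 were Ndufv2, Ndufb10, Ndufv3, Ndufa7 and Cox7a2l. Ndufv2, an iron-sulphur core subunit of complex I, measured 151, 201 and 153 CPM in wild-type and 701, 358 and 272 CPM in P248L cells, both untreated. The values at day 5 were 95.5, 95.5 and 94.6 CPM in wild-type and 163, 166 and 189.7 CPM in P248L cells. The lines did not overlap at either time. Ndufv2 was higher in the P248L line untreated (1.40 ± 0.24 SE, edgeR adjusted p = 0.000367), at day 2 (1.01 ± 0.24 SE, edgeR adjusted p = 0.0028) and at day 5 (0.86 ± 0.24 SE, edgeR adjusted p = 0.00664). Ndufb10, a membrane-arm subunit, was higher untreated (1.08 ± 0.20 SE, edgeR adjusted p = 0.000938) and at day 5 (0.77, edgeR adjusted p = 0.00483).

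At day 2, when the summed neutrophil markers were lower and the progenitor markers higher in every P248L library than in any wild-type one, 4 genes were higher there (15.5% of all genes) and 2 lower (20.3% of all), with a median of 0.10. The higher ones were Ndufv2, Cox7a2l, Ndufs1 and Sdha. At day 5, 10 were higher (12.2% of the genes, against 22.8% of all) and 4 lower (4.88%, against 22.7% of all), with a median of 0.07. The number was 6 after leaving out any of 4 libraries (wild-type 1 or 2, P248L 2 or 3). The higher genes included Ndufv2, Ndufb10, Cox7a2l, Cox7a1, Cox6a2 and Uqcrc2, and the lower ones were Sdha, Sdhd, Cox6b2 and Cox4nb. The difference of the day 5 responses passed upward for 1 gene, Cox6a2 (14.7% of all genes), and downward for the 9 given with complex II, whose number ranged from 4 without wild-type day 5 library 1 or P248L day 5 library 2, through 5 without P248L day 5 library 1 and 18 without untreated wild-type library 2, to 37 without untreated P248L library 3. For these day 5 counts with a library left out the share of all genes is not given, and they are not set against it.

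Other genes of the pathway were taken from lists that hold none of the 86. Of 47 tested assembly factors, which build the complexes, 5 rose and 20 fell by day 5 in wild-type cells (42.6% fell, near the 37.4% of all genes), and 2 rose and 32 fell in P248L cells (68.1%, against 36.2% of all; 29 without library 1). Ndufaf4, an assembly factor of complex I, fell in both (-1.64 ± 0.16 SE, edgeR adjusted p = 3.36e-08 and -1.97 ± 0.16 SE, edgeR adjusted p = 4.38e-09). Sdhaf2, which helps attach the flavin to Sdha, rose in the wild-type line (1.05 ± 0.10 SE, edgeR adjusted p = 2.47e-08). In P248L cells Sdhaf2 was also higher at day 5 without overlap, at 54.9, 55.7 and 47.3 CPM untreated and 75.6, 77.6 and 84.1 CPM at day 5. Of 16 citric acid cycle genes 12 fell in wild-type cells (75%, against 37.4% of all) and 11 in P248L cells (68.8%, against 36.2%; also 11 without library 1), and 2 and 1 rose, against 35.7% and 34.8% of all. Fh1, fumarase, measured 206 ± 17.2 CPM untreated and 46.2 ± 2.37 CPM at day 5 in wild-type cells (SD, n = 3), with a log2 fold change of -2.16 ± 0.13 (SE, edgeR adjusted p = 4.54e-11), and Idh3a, a subunit of isocitrate dehydrogenase, fell by 1.87 on the log2 scale. Both also fell in P248L cells, Fh1 at -1.66 and Idh3a at -1.59. The Sdh genes, which belong to the cycle as well, are not in this list. Of 23 tested carrier and ubiquinone genes 13 fell in wild-type cells (56.5%, against 37.4% of all) and 14 in P248L cells (60.9%, against 36.2%; 13 without library 1), with 3 rising in each. Cycs (cytochrome c) was among the falls in P248L cells (-1.30 ± 0.14 SE, edgeR adjusted p = 1.74e-07). In wild-type cells it went from 45.5 ± 4.65 to 31.4 ± 3.37 CPM (SD, n = 3). Of 15 tested regulators of mitochondrial genes 12 fell in wild-type cells (80%, against 37.4% of all) and 10 in P248L cells (66.7%, against 36.2%; also 10 without library 1), and 1 rose in each. Tfam, which packages and transcribes mitochondrial DNA, fell in both lines (-1.60 ± 0.14 SE, edgeR adjusted p = 1.1e-08 and -1.49 ± 0.14 SE, edgeR adjusted p = 3.41e-08), and Myc, a growth-linked transcription factor, went from 350 ± 15.1 to 37.5 ± 1.56 CPM in wild-type cells (SD, n = 3; -3.22 ± 0.21 SE, edgeR adjusted p = 1.46e-10). In P248L cells Myc fell as well (-1.97 ± 0.20 SE, edgeR adjusted p = 7.04e-08). Pprc1, a coactivator of NRF1, fell by 1.37 in wild-type and 1.90 in P248L cells. The medians of the lists at day 5 in the wild-type line were -0.26, -0.56, -0.48 and -0.96 for assembly, cycle, carrier and regulator genes, against -0.39 for the 82 genes. The P248L medians were -0.92, -0.58, -0.48 and -0.65, against -0.87, and without library 1 -0.66, -0.56, -0.52 and -0.61, against -0.55.

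Reads of near-identical copies limit some levels. A stretch of 75 bases or more at 98% identity or above was found at another locus for 16 of the 86 genes, and it covered at least 50% of the transcript for 6 (Atp5g2, Ndufs3, Atp5h, Uqcrb, Cox7c and Atp5l). Their levels are uncertain wherever they are given above. Smaller shares, such as those of Cox5b (45.1%) and Atp5f1 (43.4%), may affect levels as well. None of Sdha to Sdhd, Ndufa4, Ndufv2, Cox7a2l or Cox6b1 had a near-identical stretch at another locus.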

How the data were processed

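RNA-seq read counts per gene were deposited for 18 libraries, 3 in each of 6 groups taken from the labels. Per the submitters' processing notes, the tools and builds include STAR and mm10, with no version named. Each table's column of counts for the strand that held the reads was used; the other strand held 1.17 to 2.54% of reads, and 27.9 to 38.1% lay in no single gene and were left out. Counts were scaled by TMM and tested with edgeR 4.0.16 (quasi-likelihood F test, R 4.3.3) over all 18 libraries after filterByExpr with a minimum count of 10, with 11 contrasts and Benjamini-Hochberg adjustment over 11942 genes in each; adjusted p-values are edgeR's throughout. The common coefficient of variation was 0.17. The fit was tested on simulated data.

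Alternatives were DESeq2 1.42.0, upper-quartile and no scaling, no low-count filter, counts of both strands, a replicate block, a transcript length and GC trend removed, and libraries left out. Library deviations used log2(CPM + 0.5). Same-numbered untreated and day 2 P248L libraries deviated together (r = 0.46, 0.17 and 0.35 for numbers 1 to 3); in no other comparison were all 3 correlations over 0.1. The numbers come from the labels. The genes and lists were chosen with earlier results of these data known. Any member could be named; library values were given for the Sdh genes, Cyc1, isoform pairs and the strongest calls, and others by choice after seeing values. Promoters came from RefSeq (GRCm38.p6).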

Additional observations from a re-analysis of the deposited data

Results flagged for a closer look

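The change from untreated cells to the IL-3 medium differed between the P248L and the wild-type line for 10 genes at day 5 and 1 at day 2. This is by the test of the difference itself (edgeR adjusted p under 0.05 over all genes). The change covers the added IL-3 as well as the withdrawal of doxycycline and SCF, and receptor and line cannot be told apart. Values are the P248L minus the wild-type log2 fold change. The 4 genes of complex II were at -0.56 (Sdha), -0.85 (Sdhb), -0.71 (Sdhc) and -0.84 (Sdhd). In complex I Ndufa1 was at -1.11, Ndufa3 at -1.14 and Ndufa4 at -0.95, and in complex IV Cox6b1 at -0.97 and Cox4nb, which encodes no subunit, at -0.86. Cox6a2 was at 3.91 at day 5 and -1.79 at day 2, on 2 to 66 reads a library. Sdhc, Ndufa3 and Ndufa4 did not pass without untreated P248L library 1.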

How the results depend on the processing

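Of 416 recomputed values of 16 named fold changes, 389 kept direction and side of the threshold, 27 kept direction and no longer passed, and 0 reversed. Those 27 were 24 values of Cox6a2 in the difference of day 2 responses and, with no scaling, the day 5 differences of Sdha, Sdhb and Cox4nb. Of 180 recomputed counts 49 moved by over 1.5 times; the cause was not tested.

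With DESeq2, 8 genes rose at day 2 and 4 at day 5 in the wild-type line, 4 rose at day 2 in P248L cells, 7 were higher in P248L at day 2, the day 2 responses differed upward for 1 and downward for 0, and those of day 5 downward for 16. With upper-quartile scaling 2 rose at day 2 in wild-type and 1 in P248L cells, and 1 day 2 response differed upward. With no scaling these rises numbered 2 and 1, 61 fell by day 5 and 1 rose from day 2 to day 5 in wild-type cells, 14 were higher in untreated P248L cells, and responses differed downward for 0 at day 2 and for 3 at day 5, and upward for 2 at day 5. With no low-count filter 0 day 2 responses differed downward, as with both strands, where 2 rose by day 5 in P248L cells. With the length and GC trend removed, 8 rose and 11 fell at day 2, 4 rose by day 5 and 7 rose from day 2 to day 5 in wild-type cells. In P248L cells 7 rose at day 2, 3 by day 5 and 9 between. Against wild-type, 9 were then higher and 4 lower at day 2 and 15 lower at day 5, and responses differed upward for 1 and downward for 0 at day 2 and downward for 19 at day 5. Without untreated P248L library 1 and P248L day 2 library 3, 10 rose at day 2, 5 by day 5 and 7 between in wild-type cells; 6 rose and 3 fell at day 2 and 3 rose by day 5 in P248L cells; 9 were higher untreated and 10 at day 2 in P248L, 8 lower at day 5; responses differed downward for 0 at day 2 and upward for 2 at day 5.

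When each library was left out in turn, the genes that rose and fell in wild-type cells numbered 3 to 9 and 2 to 5 at day 2, 0 to 4 and 22 to 40 by day 5, and 2 to 5 and 27 to 48 from day 2 to day 5. In P248L cells they numbered 2 to 5 and 8 to 48, 1 to 3 and 49 to 73, and 4 to 6 and 29 to 49. Higher and lower in P248L were 5 to 62 and 2 to 2 untreated, 2 to 8 and 2 to 3 at day 2, and 6 to 10 and 4 to 7 at day 5. Responses differed upward and downward for 0 to 1 and 0 to 10 at day 2 and for 1 to 1 and 4 to 37 at day 5. Shares of all genes are not given beside these ranges, which describe how far the counts moved.

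With the replicate block the falls numbered 33 in wild-type and 63 in P248L cells by day 5 and 29 in P248L cells at day 2, 19 genes were higher in untreated P248L cells, 7 day 5 responses differed downward, and 0 day 2 responses did. In the untreated and day 2 P248L libraries alone, 28 fell and 0 rose with the block, and 1 fell and 0 rose without it. These fits were added after seeing the data.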
